A study of Homo sapiens with 6 samples.

Results

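The genes described here encode the unfolded protein response and the folding, degradation and import machinery of the endoplasmic reticulum (ER). They are the 33 symbols HSPA5, HSP90B1, XBP1, ATF6, ERN1, EIF2AK3, DNAJB9, DNAJB11, DNAJC3, SEL1L, SYVN1, HERPUD1, EDEM1, EDEM2, EDEM3, PDIA3, PDIA4, PDIA6, P4HB, CALR, CANX, HYOU1, SDF2L1, CRELD2, MANF, SEC61A1, SEC61B, SSR1, DERL1, DERL2, DERL3, OS9 and WFS1, chosen by name. The choice was made with earlier results of these data known. Each symbol matched exactly 1 row among the 60504 genes of the table. The cells were HCC827, an established line from a human lung adenocarcinoma that carries an activating EGFR deletion, and no genetic change distinguished the groups. In the 3D group, 50000 cells per droplet were embedded in Matrigel, an extract of basement membrane, depleted of growth factors, and grown as tumoroids for 12 to 16 days. Per the labels, tumoroids were passaged with Dispase, a Rock inhibitor and TrypLE, and monolayers with TrypLE. In the 2D group, 1000000 cells were passaged into uncoated flasks and grown as a monolayer for 4 to 6 days. Both groups received RPMI medium with fetal bovine serum and antibiotics, and each held 3 libraries of poly(A) RNA. The values are TPM, the transcript share of a gene per length scaled to 1000000 per library.

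Because TPM holds no read numbers, library depth is not known and counting error cannot be stated. Culture time, seeding number, gel contact and geometry differed together between the groups and cannot be told apart. Nothing in the labels tells whether the 3 libraries were separate cultures. The p-values then reflect the spread among these samples alone, which may be technical. In bulk RNA, fewer cells of a type and less RNA per cell cannot be told apart. The epithelial genes EPCAM, KRT8, KRT18, KRT19, KRT7, CDH1, EGFR and NKX2-1 were all detected in all 6 libraries, with summed levels of 5018 to 8806 TPM in 3D and 7602 to 10166 TPM in 2D. Of 8 fibroblast markers 6 stayed under 1 TPM in every library, 2 of them (COL3A1 and THY1) were listed at 0 throughout, and their sum was 6.99 to 12.2 TPM in 3D and 2.10 to 2.96 TPM in 2D, mostly COL1A1, which was called higher in 3D. KRT7 was called lower in 3D. The 6 endothelial markers summed to 1.55 to 4.10 TPM in 3D and 0.68 to 1.48 TPM in 2D, and the 7 leukocyte markers, mostly CD68, to 48.8 to 90.6 TPM in 3D and 70.9 to 98.8 TPM in 2D, with 5 of them, PTPRC included, under 1 TPM in every library. Of 6 plasma cell markers 4 stayed under 1 TPM in every library (MZB1, JCHAIN, POU2AF1 and IRF4), and the sum, mostly SDC1, was 95.3 to 117 TPM in 3D and 79.1 to 145 TPM in 2D. The part of these markers in the results below was not tested.

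The ER folds and modifies proteins bound for secretion or for membranes. When unfolded proteins build up, the sensors ERN1 (IRE1), EIF2AK3 (PERK) and ATF6 set off the unfolded protein response. IRE1 splices the mRNA of the transcription factor XBP1, PERK phosphorylates the translation factor eIF2 alpha, and ATF6 is cut to release a transcription factor. These branches raise the transcription of chaperones, of folding enzymes and of ER-associated degradation (ERAD), which returns misfolded proteins to the cytosol for the proteasome. Many of the induced promoters hold the ER stress response element (ERSE), which ATF6 and the CCAAT-binding factor NF-Y bind together. Gene-level TPM measures neither the splicing of XBP1 nor the phosphorylation of PERK nor the cleavage of ATF6.

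In the comparison of 3D with 2D culture 3 members were called (9.38% of those tested, where 10.2% of all tested genes were called higher). EIF2AK3 (PERK), the transcription factor XBP1 and the ERAD adaptor SEL1L rose in 3D, no member fell, and 29 tested members did not pass the test. The major chaperones HSPA5 and HSP90B1 had means 1.46 and 1.47 times as high in 3D as in 2D without passing it. Of the 33 members 32 averaged 1 TPM or more and were tested, as 3D against 2D on log2(TPM + 1) with limma and Benjamini-Hochberg adjustment over 15042 genes. DERL3, a derlin of professional secretory cells, did not pass this filter, with 0.72, 0.83 and 0.78 TPM in 3D and 0.75, 0.82 and 0.84 TPM in 2D.

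The number of calls among the members was close to that of the whole table. Members called lower were 0 of 32, where 2.12% of all tested genes were. At an unadjusted p under 0.05, limma marked 10 members, all higher (31.3%), where 31.4% of all tested genes were marked in either direction. The 3D libraries lay wholly above the 2D libraries in 12 members (37.5%), where 27.3% of all tested genes did so, and wholly below in 0 members, where 9.4% of all tested genes did so.

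The log2 fold changes leaned to the positive side. They were positive in 29 of 32 members (90.6%), against 60.8% of all tested genes, and their median was 0.29, against 0.12 for all tested genes. In the upper quintile of tested genes by mean TPM, which held 19 of the members, the median of all genes was -0.03. The lean of the members towards positive values depended in part on scaling, as did the median of all tested genes. With libraries rescaled by median ratios the member median was 0.13, with 27 of 32 positive, while the median of all tested genes moved to -0.01. With quantile normalization the member median was 0.24, with 28 of 32 positive, and the median of all genes was -0.04. SEC61B changed sign under both and DERL1 under median ratios. These are descriptions of a list chosen by name with earlier results of these data known. They were not tested as a set.

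**Figure D1:**
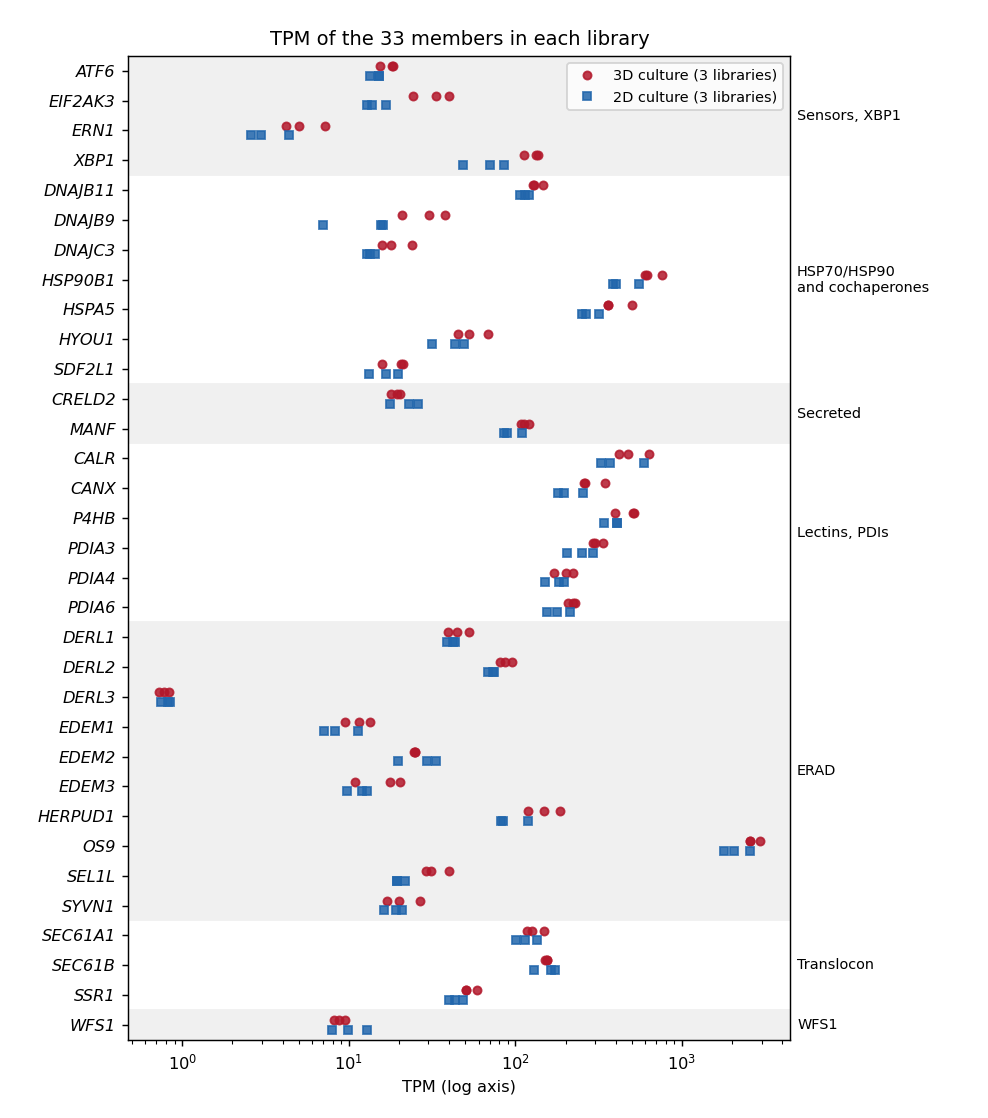
TPM (log axis) of each of the 33 members in each library, with 3 points for 3D culture (circles) above 3 points for 2D culture (squares), grouped by role. Levels run from under 1 TPM for DERL3 to 2950 TPM in the highest library for OS9, and the groups are apart for 12 members, among them EIF2AK3, XBP1 and SEL1L.

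The sensors were expressed at low to moderate levels. EIF2AK3 (chr2:88556741-88627576, minus strand, GRCh38), the kinase that slows translation under ER stress, had 33.16, 39.77 and 24.29 TPM in 3D and 13.74, 16.60 and 12.82 TPM in 2D. Every 3D library was above every 2D library, and the lowest 3D value belonged to replicate 3. Its means were 32.4 ± 7.77 TPM in 3D and 14.4 ± 1.97 TPM in 2D (SD, n = 3 each), a log2 fold change of 1.10 with SE 0.20 (limma, adjusted p = 0.0166). The call did not survive dropping the filter on low TPM, nor the removal of 3D replicate 1 or 2 or of 2D replicate 1 (limma, adjusted p of 0.00967 to 0.0812 over the alternatives).

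XBP1 (chr22:28794555-28800597, minus strand), whose spliced product drives chaperone and ERAD genes, had 133.24, 135.95 and 112.71 TPM in 3D and 85.91, 70.61 and 48.64 TPM in 2D. The groups did not overlap, and replicate 3 was the lowest library of each group. The limma log2 fold change was 0.92 (SE 0.21, adjusted p = 0.0328). Median-ratio scaling, no filter, and the removal of any of 3D replicate 1, 3D replicate 2 and 2D replicate 2 each ended the call (limma, adjusted p of 0.0159 to 0.126 over the alternatives).

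ERN1, the kinase and nuclease that splices XBP1 mRNA, was the scarcest sensor, with 5.02, 7.20 and 4.17 TPM in 3D and 4.37, 2.97 and 2.59 TPM in 2D. The groups overlapped, since 2D replicate 1 exceeded 3D replicate 3 (log2 fold change of 0.58 with SE 0.24, and limma adjusted p = 0.148). ATF6, the membrane-bound precursor of a transcription factor, had 18.32, 18.27 and 15.47 TPM in 3D and 15.17, 15.20 and 13.35 TPM in 2D. Its groups were apart by a small margin (15.47 against 15.20 TPM), and the difference did not pass the test (0.24, SE 0.14, adjusted p = 0.276).

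**Figure D2:**
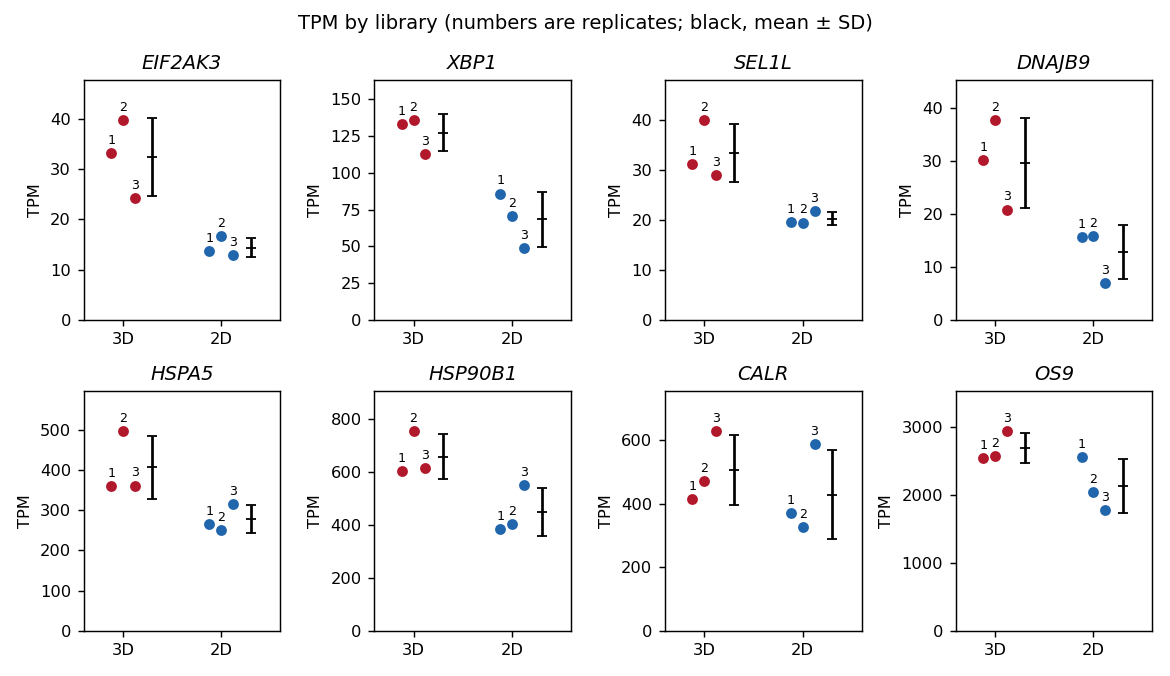
TPM on linear axes from 0 for 8 members, with 1 point per library labelled by its replicate number and the mean ± SD in black, 3D left of 2D. EIF2AK3, XBP1, SEL1L, DNAJB9, HSPA5 and HSP90B1 have every 3D library above every 2D library, while CALR and OS9 overlap.

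The 7 chaperones of the HSP70 and HSP90 families and their cochaperones all had positive log2 fold changes, from 0.21 to 1.18 with a median of 0.46, also under median ratios and quantile normalization, and none passed the test. Among all tested genes 60.8% had positive log2 fold changes in the main fit and 10.2% were called higher. HSPA5 (BiP; chr9:125234853-125241330, minus strand), the HSP70 of the ER and the regulator of all 3 sensors, had 360.24, 497.47 and 361.48 TPM in 3D and 266.30, 251.62 and 316.60 TPM in 2D. HSP90B1 (GRP94; chr12:103930107-103953645, plus strand), its HSP90 counterpart, had 602.31, 753.54 and 611.84 TPM in 3D and 384.93, 404.11 and 550.72 TPM in 2D. For both genes the groups were apart, the highest 3D library was replicate 2 and the highest 2D library was replicate 3. The limma log2 fold changes were 0.54 for HSPA5 (SE 0.17, adjusted p = 0.0811) and 0.56 for HSP90B1 (SE 0.18, adjusted p = 0.0786). Both passed the threshold without the libraries numbered 3 of both groups, and HSP90B1 also without 2D replicate 3 alone (limma, adjusted p over the alternatives of 0.0333 to 0.226 for HSPA5 and 0.0160 to 0.233 for HSP90B1).

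The largest log2 fold change of any member was that of DNAJB9 (ERdj4; chr7:108569568-108574850, plus strand), a J-domain cochaperone of BiP that holds IRE1 inactive. It had 30.13, 37.80 and 20.86 TPM in 3D and 15.67, 15.94 and 6.96 TPM in 2D. The groups were apart, but replicate 3 was the lowest in each and lay far below its companions in 2D. The difference missed the threshold (log2 fold change of 1.18 with SE 0.33, and limma adjusted p = 0.0582). It passed with the replicate number as a block, in protein-coding nuclear genes only, without 3D replicate 3, and without the libraries numbered 3 of both groups (limma, adjusted p of 0.0100 to 0.194 over the alternatives).

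The other chaperone partners differed less. DNAJC3 (p58IPK), a J-domain protein that binds unfolded clients, averaged 19.2 ± 4.26 TPM in 3D and 13.5 ± 0.835 TPM in 2D, and DNAJB11 (ERdj3), another BiP cochaperone, 135 ± 10.5 TPM in 3D and 113 ± 6.83 TPM in 2D. In both the groups were apart. HYOU1 (GRP170), a nucleotide exchange factor for BiP, averaged 55.3 ± 11.8 TPM in 3D and 41.4 ± 9.07 TPM in 2D, and SDF2L1, which works with ERdj3, 19.2 ± 3.00 TPM in 3D and 16.5 ± 3.23 TPM in 2D. Their groups overlapped. Summed over the 7 genes, the level was 1207, 1548 and 1206 TPM in 3D and 855, 850 and 1062 TPM in 2D, of which HSPA5 and HSP90B1 made up the greater part.

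Of the 2 small ER proteins that are secreted under stress, MANF had 108.05, 119.84 and 112.18 TPM in 3D and 84.78, 89.38 and 109.91 TPM in 2D (log2 fold change of 0.26 with SE 0.14, and limma adjusted p = 0.232). The groups overlapped because 2D replicate 3 exceeded 3D replicate 1. CRELD2, a target of ATF6 with an ERSE in its promoter, averaged 19.2 ± 1.28 TPM in 3D and 22.1 ± 4.14 TPM in 2D (-0.18, SE 0.16, adjusted p = 0.491). It was one of the 3 members with a negative log2 fold change, with EDEM2 and WFS1.

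The 6 lectin chaperones and protein disulfide isomerases were abundant, and only CANX had every 3D library above every 2D library. The same order was found in 27.3% of all tested genes. CALR (calreticulin; chr19:12938578-12944489, plus strand), the soluble lectin chaperone of the calnexin cycle, had 416.46, 471.92 and 630.00 TPM in 3D and 371.47, 327.53 and 588.64 TPM in 2D. Replicate 3 was the highest library in each group, and the groups overlapped (log2 fold change of 0.26 with SE 0.25, and limma adjusted p = 0.506). CANX (calnexin; chr5:179678628-179730925, plus strand), its membrane-bound counterpart, had 259.14, 343.62 and 261.30 TPM in 3D and 195.24, 180.31 and 254.94 TPM in 2D. The CANX groups were just apart and the difference missed the threshold (0.46, SE 0.18, adjusted p = 0.135), passing only without the libraries numbered 3 of both groups (limma, adjusted p of 0.0332 to 0.351 over the alternatives).

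The 4 disulfide isomerases, which form and reshuffle disulfide bonds, all overlapped between the groups. P4HB (PDI) averaged 472 ± 65.9 TPM in 3D and 384 ± 37.5 TPM in 2D, and PDIA3 (ERp57), the partner of the lectin chaperones, 310 ± 23.9 TPM in 3D and 249 ± 43.7 TPM in 2D. PDIA6 averaged 219 ± 10.7 TPM in 3D and 182 ± 29.8 TPM in 2D, and PDIA4 (ERp72) 198 ± 25.9 TPM in 3D and 177 ± 23.5 TPM in 2D. Their limma log2 fold changes lay between 0.16 and 0.32 with adjusted p of 0.208 to 0.511. PDIA3, PDIA4 and PDIA6 shared with CALR the order in which replicate 3 was the highest library of each group.

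Among the ERAD genes 1 of 9 tested members rose and 8 did not pass the test, where 10.2% of all tested genes were called higher. SEL1L (chr14:81471549-81533861, minus strand), the adaptor that feeds substrates to the ubiquitin ligase SYVN1 (HRD1), had 31.29, 40.07 and 29.05 TPM in 3D and 19.55, 19.51 and 21.87 TPM in 2D. The groups were well apart, with a mean 1.65 times as high in 3D (log2 fold change of 0.68 with SE 0.15, and limma adjusted p = 0.0310). Median-ratio scaling, quantile normalization, no filter, and the removal of any library numbered 1 or 2 each ended the call (limma, adjusted p of 0.0217 to 0.109 over the alternatives). Its partner ligase SYVN1 had overlapping groups, with 21.3 ± 5.04 TPM in 3D and 18.7 ± 2.29 TPM in 2D (0.16, SE 0.19, adjusted p = 0.593).

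HERPUD1, which organises the SYVN1 complex, had 148.48, 185.97 and 118.18 TPM in 3D and 118.85, 84.46 and 82.34 TPM in 2D. Only the pair of 3D replicate 3 and 2D replicate 1 broke the separation, by less than 1 TPM (log2 fold change of 0.65 with SE 0.21, and limma adjusted p = 0.0823). It passed the threshold without 3D replicate 3 and without the libraries numbered 3 of both groups (limma, adjusted p of 0.0482 to 0.239 over the alternatives).

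OS9 (chr12:57693955-57721557, plus strand), a lectin that hands misfolded glycoproteins to SEL1L, was the most abundant member by a wide margin and ranked 55 among 19797 protein-coding genes by mean TPM. It had 2551.64, 2575.34 and 2950.02 TPM in 3D and 2565.13, 2042.87 and 1787.48 TPM in 2D. The groups overlapped through 2D replicate 1 (log2 fold change of 0.35 with SE 0.17, and limma adjusted p = 0.215). OS9 alone made up 35.2% to 40.3% of the summed TPM of the members in 3D and 32.1% to 43.3% in 2D. Without it the members summed to 4367 ± 387 TPM in 3D and 3393 ± 378 TPM in 2D, with a ratio of 1.29, close to the 1.28 with it.

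The mannosidase-like proteins EDEM1, EDEM2 and EDEM3 trim glycans to mark substrates for degradation. EDEM3 averaged 16.3 ± 4.84 TPM in 3D and 11.5 ± 1.58 TPM in 2D, EDEM1 11.5 ± 1.93 TPM in 3D and 8.88 ± 2.22 TPM in 2D, and EDEM2 24.9 ± 0.226 TPM in 3D and 27.5 ± 7.02 TPM in 2D. The groups of all 3 overlapped, with limma log2 fold changes of 0.43, 0.35 and -0.10, and EDEM2 was positive without 2D replicate 1. EDEM3 passed the threshold without 3D replicate 3 and without the libraries numbered 3 of both groups (limma, adjusted p of 0.0450 to 0.570 over the alternatives). The channel proteins DERL1 and DERL2 averaged 45.4 ± 6.78 and 87.6 ± 7.63 TPM in 3D, against 41.7 ± 2.39 and 72.0 ± 3.16 TPM in 2D. DERL2 groups were apart and DERL1 groups overlapped, and neither passed the test (limma, adjusted p = 0.168 for DERL2 and 0.628 for DERL1).

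The 3 members of the import machinery differed little between the cultures. SEC61B, a subunit of the translocation channel, had 151.32, 155.32 and 155.51 TPM in 3D and 172.47, 164.09 and 128.50 TPM in 2D, with a limma log2 fold change of 0.00 (SE 0.14, adjusted p = 0.994). SEC61A1, the channel itself, averaged 130 ± 15.8 TPM in 3D and 117 ± 17.1 TPM in 2D. SSR1, a subunit of the TRAP complex beside the channel, had 50.62, 59.02 and 50.33 TPM in 3D and 43.41, 40.07 and 48.15 TPM in 2D, with groups apart, and did not pass the test (0.28, SE 0.13). WFS1 (wolframin), an ER membrane protein linked to calcium balance, had 8.77, 9.51 and 8.09 TPM in 3D and 12.88, 9.91 and 7.92 TPM in 2D (-0.18, SE 0.19, adjusted p = 0.550).

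**Figure D3:**
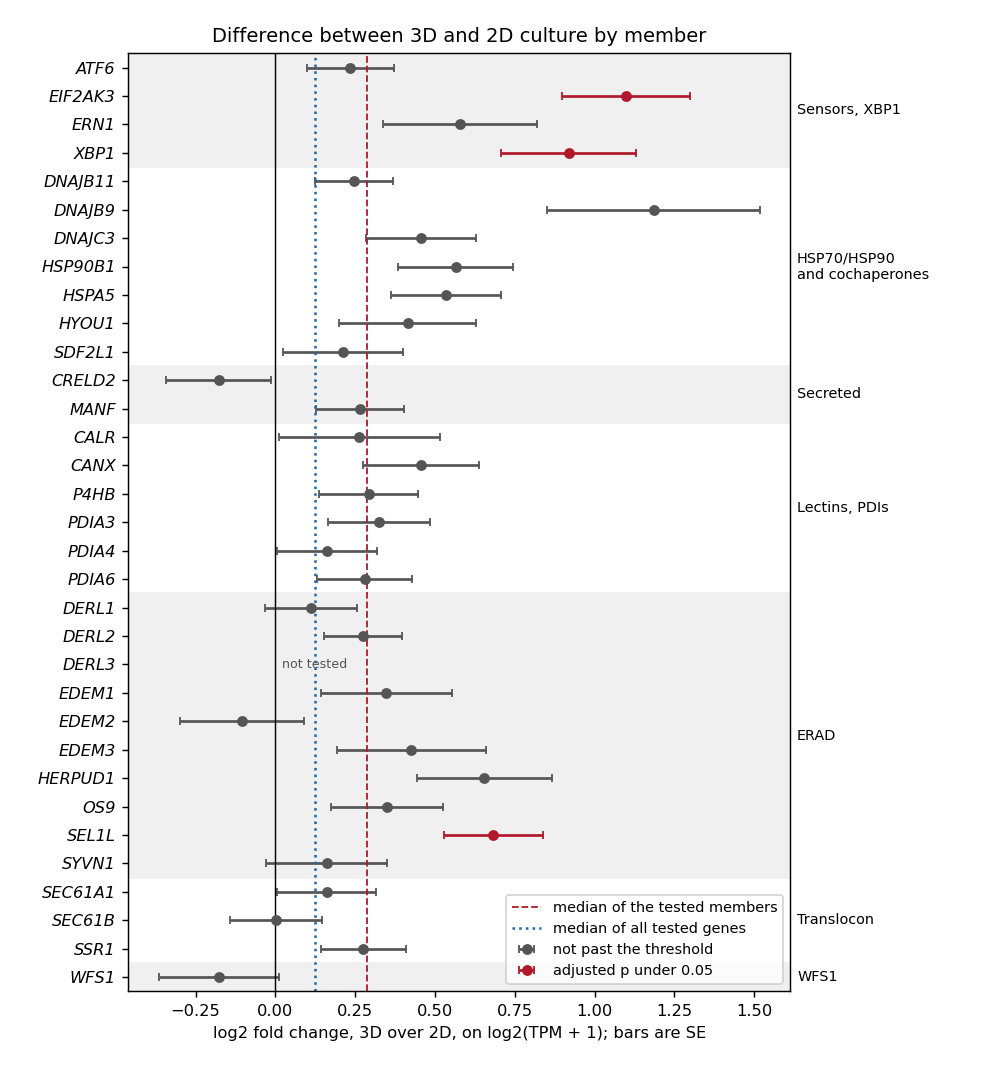
Limma log2 fold change of each tested member, 3D over 2D on log2(TPM + 1), with SE bars, the members past the threshold in red and the medians of the members (dashed, 0.29) and of all tested genes (dotted, 0.12). EIF2AK3, XBP1 and SEL1L are past the threshold, and DNAJB9 has the largest value with the widest error.

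The promoter sequences of the members were then searched for the stress elements that these branches act on. RefSeq promoter windows on GRCh38.p14 were found for 30 of the 33 members, all but PDIA3, DERL1 and DERL3, and the 250 bases before each annotated start were searched on both strands. The full ERSE, which is CCAAT and CCACG with 9 free bases between them, was present in 7 of 30 members (23.3%) and in 21 of 15841 protein-coding genes with a window (0.133%). The related ERSE-II, which is ATTGG and CCACG with 1 free base between them, was present in 3 members (10.0%) and in 14 of those genes (0.0884%). Together 10 of the 30 members held either element. The members were not taken out of the protein-coding genes, and HSPA5 is the archetypal ERSE gene. These shares are therefore not an independent comparison. The ERSE sites of the 7 members are printed 5′ to 3′ on the strand named. Capitals are the fixed letters of the element, and lower case is the free spacer. CALR, HSP90B1 (the site nearer the start) and CRELD2 carried the element on the strand opposite to the gene.
HSPA5, chr9:125241391-125241409, minus strand: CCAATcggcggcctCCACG
HSP90B1, chr12:103930216-103930234, plus strand: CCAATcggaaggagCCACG
HSP90B1, chr12:103930321-103930339, minus strand: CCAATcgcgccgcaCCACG
XBP1, chr22:28800603-28800621, minus strand: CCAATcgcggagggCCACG
CALR, chr19:12938384-12938402, minus strand: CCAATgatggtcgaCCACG
CANX, chr5:179698778-179698796, plus strand: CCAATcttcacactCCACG
PDIA6, chr2:10812853-10812871, minus strand: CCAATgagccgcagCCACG
CRELD2, chr22:49918554-49918572, minus strand: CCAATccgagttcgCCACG

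The ERSE-II matches lay in HERPUD1, SDF2L1 and, at 2 places, HYOU1. Their letters follow with the same use of capitals.
HERPUD1, chr16:56932025-56932035, plus strand: ATTGGgCCACG
HYOU1, chr11:119057380-119057390, plus strand: ATTGGaCCACG
HYOU1, chr11:119057274-119057284, plus strand: ATTGGaCCACG
SDF2L1, chr22:21642114-21642124, minus strand: ATTGGtCCACG

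The core of the XBP1 element, TGACGTG, occurred in 1 member (3.33%), HYOU1, and in 2.36% of the protein-coding genes. The HYOU1 match shares 4 bases with the farther of its ERSE-II sites. The composite element of ATF4 and CHOP, TGATGNAA, occurred in 1 member, HERPUD1, and in 3.16% of the protein-coding genes. A plain CCAAT box, which is also part of every ERSE and, read on the other strand, of every ERSE-II, occurred in 26 of 30 members (86.7%) and in 40.2% of the protein-coding genes. A match is a description of letters and not evidence of binding.

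The whole 250-base windows follow, to set the promoter of the archetypal ERSE gene, HSPA5, beside those of XBP1 and SEL1L, which rose in 3D. Capitals mark ERSE matches, and SEL1L had no match to any of the 4 stress elements in this window. The EIF2AK3 window and the second RefSeq window of XBP1, neither of them printed, had no match either.
XBP1, chr22:28800570-28800819, minus strand: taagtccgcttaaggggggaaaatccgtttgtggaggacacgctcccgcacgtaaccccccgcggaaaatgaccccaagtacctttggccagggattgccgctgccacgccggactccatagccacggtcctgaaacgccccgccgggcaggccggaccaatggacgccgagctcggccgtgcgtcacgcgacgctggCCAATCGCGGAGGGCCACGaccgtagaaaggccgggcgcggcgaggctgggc
HSPA5, chr9:125241344-125241593, minus strand: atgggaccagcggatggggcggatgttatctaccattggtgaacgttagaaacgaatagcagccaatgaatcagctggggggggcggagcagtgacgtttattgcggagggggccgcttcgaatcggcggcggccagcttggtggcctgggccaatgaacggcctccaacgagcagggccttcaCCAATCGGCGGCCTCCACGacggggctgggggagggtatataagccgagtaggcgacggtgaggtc
SEL1L, chr14:81533854-81534103, minus strand: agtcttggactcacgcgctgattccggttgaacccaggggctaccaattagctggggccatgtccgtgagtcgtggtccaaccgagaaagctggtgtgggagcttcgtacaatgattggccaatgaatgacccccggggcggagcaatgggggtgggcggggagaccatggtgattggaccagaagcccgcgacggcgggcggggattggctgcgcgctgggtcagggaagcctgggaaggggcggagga

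Members with an ERSE did not stand apart by their calls. Of the 7 with the element, 1 (XBP1) was called and 4 had groups apart, with a median log2 fold change of 0.46 and a range from -0.18 to 0.92. Of the 23 without it in the window, 2 (EIF2AK3 and SEL1L) were called and 8 had groups apart, with a median of 0.28 and a range from -0.18 to 1.18. The element was thus present both in HSPA5 and HSP90B1, at 0.54 and 0.56, and in CRELD2, at -0.18. The 23 members without an ERSE included HERPUD1, HYOU1 and SDF2L1, which held an ERSE-II. Of all tested genes 10.2% were called higher, and 27.3% had every 3D library above every 2D library. The difference between members with and without an ERSE was not tested.

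Within the groups the members followed opposing patterns across libraries. In 10 of 32 tested members (31.3%) replicate 3 was the lowest library of both groups, where 18.1% of all tested genes had that order. These were the sensors ERN1, EIF2AK3 and ATF6, the transcription factor XBP1, and DNAJB9, DNAJC3, HERPUD1, EDEM3, DERL1 and WFS1. In 7 members (21.9%) replicate 3 was the highest library of both groups, where 17.0% of all tested genes had that order. These were the folding proteins CALR, PDIA3, PDIA4, PDIA6, SDF2L1 and CRELD2, and the ERAD channel protein DERL2. Within 3D, replicate 2 was the highest library in 20 members (62.5%), where 39.7% of all tested genes had their 3D maximum there. Without the libraries numbered 3 of both groups 9 members were called higher in place of 3. They were EIF2AK3, SEL1L, XBP1, DNAJB9, HSP90B1, HSPA5, HERPUD1, CANX and EDEM3. In that comparison 2289 genes of the whole table were called higher, in place of 1536.

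**Figure D4:**
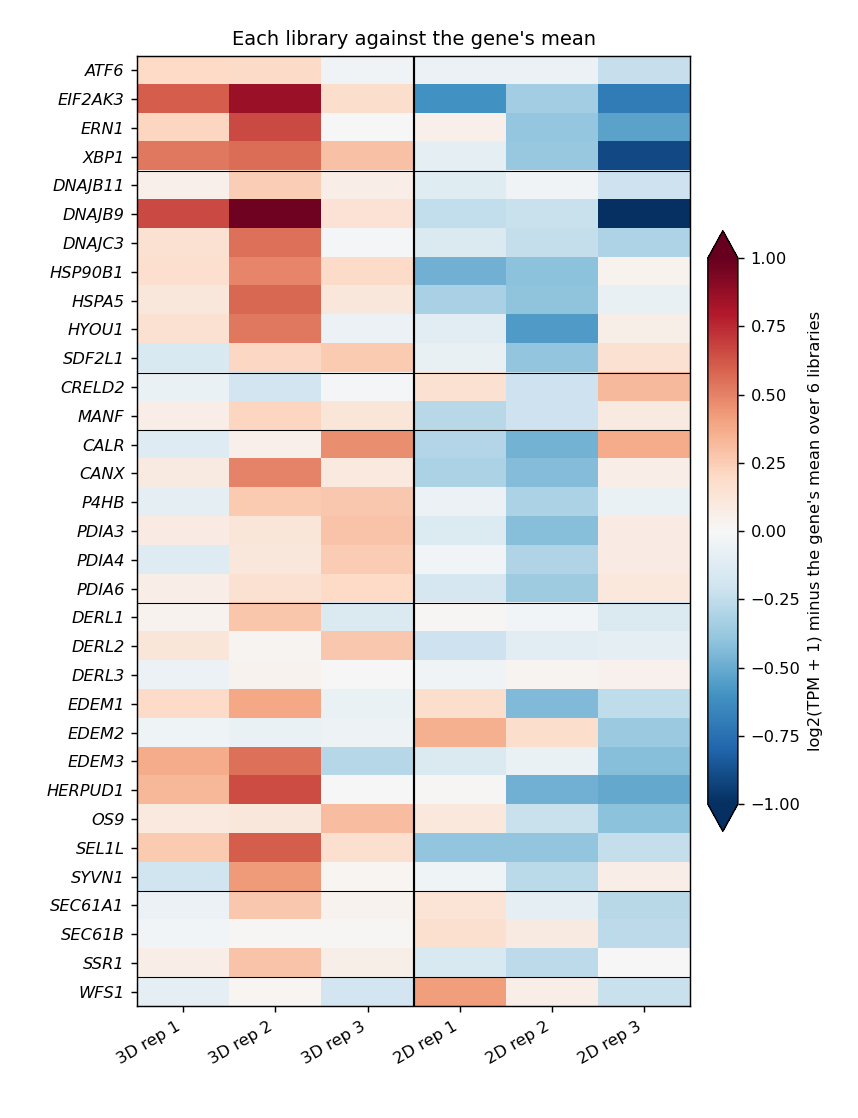
Each member's log2(TPM + 1) in each library minus its mean over the 6 libraries (red above, blue below; colour limits of 1 in either direction), 3D libraries left of 2D libraries, rows grouped by role. The sensors, XBP1, DNAJB9 and HERPUD1 are lowest in replicate 3 of each group, and CALR, PDIA3, PDIA4 and PDIA6 are highest there.

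Other genes of the secretory pathway were examined through 7 lists, also chosen with earlier results of these data known. Of 137 tested genes in these lists 18 rose (13.1%, where 10.2% of all tested genes were called higher), and none fell, with 5 lower at an unadjusted p under 0.05 (limma). Genes of these lists were called lower under other settings, 3 under median-ratio scaling and 10 without the libraries numbered 3 of both groups. In those settings 612 and 1239 of all 15042 tested genes were called lower, in that order. The calls of PPP1R15A, PPP1R15B and P4HA1 held under each alternative run, and the other 15 were lost under at least 1.

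The largest of these differences were those of PPP1R15A and PPP1R15B, in the list of the PERK branch. Among the 14 genes of that list 4 rose and 10 missed the threshold, with a median log2 fold change of 0.39. Of all tested genes 10.2% were called higher. PPP1R15A (GADD34), which brings a phosphatase to eIF2 alpha and so reverses the action of PERK, had 289.39, 230.02 and 213.51 TPM in 3D and 37.77, 25.58 and 22.73 TPM in 2D. All 3D libraries were several times as high as any 2D library (log2 fold change of 3.07 with SE 0.21, and limma adjusted p = 0.000381). Its constitutive relative PPP1R15B (CReP) had 105.54, 86.43 and 60.19 TPM in 3D and 20.81, 17.72 and 17.40 TPM in 2D (2.08, SE 0.21, adjusted p = 0.00214). ERO1A, the oxidase that recharges protein disulfide isomerases and is also induced by low oxygen, had 288.35, 470.00 and 350.92 TPM in 3D and 114.33, 101.48 and 194.74 TPM in 2D (1.46, SE 0.28, adjusted p = 0.0184). NFE2L2 (NRF2), a substrate of PERK, averaged 136 ± 24.6 TPM in 3D and 72.5 ± 7.16 TPM in 2D (0.88, SE 0.16, adjusted p = 0.0172). The calls of ERO1A and NFE2L2 ended on removal of any library numbered 1 or 2.

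The transcription factors of that branch and several of their targets did not pass the test. ATF4 averaged 419 ± 29.5 TPM in 3D and 370 ± 52.5 TPM in 2D (log2 fold change of 0.19 with SE 0.15, and limma adjusted p = 0.418), although its activity is set mainly by translation. DDIT3 (CHOP), a transcription factor linked to cell death under stress, averaged 63.3 ± 16.3 TPM in 3D and 39.2 ± 13.5 TPM in 2D (0.71, SE 0.30, adjusted p = 0.154). TRIB3, CHAC1 and ASNS, which ATF4 activates, had log2 fold changes of 0.06, 0.21 and -0.51 and were not called.

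Genes of transport out of the ER came next. Of 21 tested genes in a list of the COPII coat and cargo receptors, which carry folded proteins towards the Golgi, and of CREB3 transcription factors, 5 rose (4 coat genes and CREB3L2) and 16 missed the threshold, with 19 positive and a median of 0.38. The share called higher among all tested genes was 10.2%, and 60.8% of them were positive. Under median ratios 2 genes of the list were called higher, where 971 of all 15042 tested genes were, and 15 were positive. The cargo adaptor SEC24A averaged 27.1 ± 8.82 TPM in 3D and 13.3 ± 0.985 TPM in 2D (limma log2 fold change 0.93, adjusted p = 0.0390), and its paralog SEC24D 41.6 ± 5.72 TPM in 3D and 21.7 ± 4.00 TPM in 2D (0.91, adjusted p = 0.0184). CREB3L2, a membrane-bound transcription factor related to ATF6 that drives secretory genes, averaged 17.8 ± 2.57 TPM in 3D and 9.87 ± 2.01 TPM in 2D (0.80, adjusted p = 0.0330). No filter, or the removal of 3D replicate 1, 3D replicate 2 or 2D replicate 2, ended all 3 calls, and other alternatives ended those of SEC24A and CREB3L2.

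In the list of other ERAD components 4 of 28 tested genes rose and 24 missed the threshold, where 10.2% of all tested genes were called higher. The median of the list was 0.14, and -0.01 under median ratios. The ER membrane ubiquitin ligase RNF139 had 18.39, 20.58 and 20.27 TPM in 3D and 10.63, 12.26 and 9.69 TPM in 2D (limma log2 fold change 0.81, adjusted p = 0.0142), a call that ended on removal of 3D replicate 1 or 2. UBE2J1, a ubiquitin-conjugating enzyme that works with SYVN1, averaged 37.5 ± 3.65 TPM in 3D and 23.9 ± 2.06 TPM in 2D (0.63, adjusted p = 0.0264), and UBXN4, which recruits the extracting ATPase, 96.5 ± 10.4 TPM in 3D and 65.1 ± 4.87 TPM in 2D (0.56, adjusted p = 0.0355). Median ratios, quantile normalization, no filter, and the removal of any library numbered 1 or 2 each ended the calls of UBE2J1 and UBXN4.

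Among other oxidoreductases and folding factors 3 of 31 tested genes rose and 28 missed the threshold, where 10.2% of all tested genes were called higher. The median of the list was 0.14, and close to 0 under median ratios. P4HA1, the catalytic subunit of the collagen prolyl hydroxylase whose other subunit is P4HB, had 109.43, 109.26 and 135.21 TPM in 3D and 31.01, 37.27 and 56.70 TPM in 2D. The groups were far apart (log2 fold change of 1.52 with SE 0.22, and limma adjusted p = 0.00877), whereas those of P4HB overlapped. The thioredoxin-like TXNDC11 averaged 31.7 ± 0.738 TPM in 3D and 18.8 ± 1.55 TPM in 2D (0.72, adjusted p = 0.0138), and the ER peroxiredoxin PRDX4 144 ± 21.9 TPM in 3D and 89.8 ± 12.3 TPM in 2D (0.67, adjusted p = 0.0366). The PRDX4 call ended under median ratios and on removal of any library other than 2D replicate 3, and that of TXNDC11 on removal of 3D replicate 1 or 2.

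The remaining lists held few calls, where 10.2% of all tested genes were called higher. In signal recognition and signal peptidase 1 of 13 genes rose, SRP54, which reads signal sequences on the ribosome, with 89.1 ± 8.55 TPM in 3D and 58.7 ± 2.20 TPM in 2D (limma log2 fold change 0.59, adjusted p = 0.0247). Among other translocon and TRAP subunits 1 of 9 rose, SEC63, a J-domain protein that brings BiP to the channel, with 94.8 ± 10.4 TPM in 3D and 61.0 ± 6.89 TPM in 2D (0.63, adjusted p = 0.0315). Median ratios and the removal of any library numbered 1 or 2 each ended both calls, and quantile normalization or no filter that of SEC63. None of 21 genes of the oligosaccharyltransferase and calnexin cycle passed the test with limma, with 3 at an unadjusted p under 0.05 and a median close to 0. Its calls lower numbered 2 under median-ratio scaling (median -0.16) and 4 without the libraries numbered 3 of both groups (median -0.16). In those settings 612 and 1239 of all 15042 tested genes were called lower, in that order. The most abundant gene of this list, DAD1, averaged 321 ± 14.8 TPM in 3D and 385 ± 73.2 TPM in 2D. None of 17 cytosolic and mitochondrial chaperones, a list set beside those of the ER, passed the test either. Of these, 3 were at an unadjusted p under 0.05 with limma, and the median was -0.11. Without the libraries numbered 3 of both groups 3 of the 17 were called higher, with a median of -0.03. In that comparison 2289 of all 15042 tested genes were called higher. The most abundant of the 17, PPIA, averaged 1577 ± 272 TPM in 3D and 1832 ± 232 TPM in 2D.

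**Figure D5:**
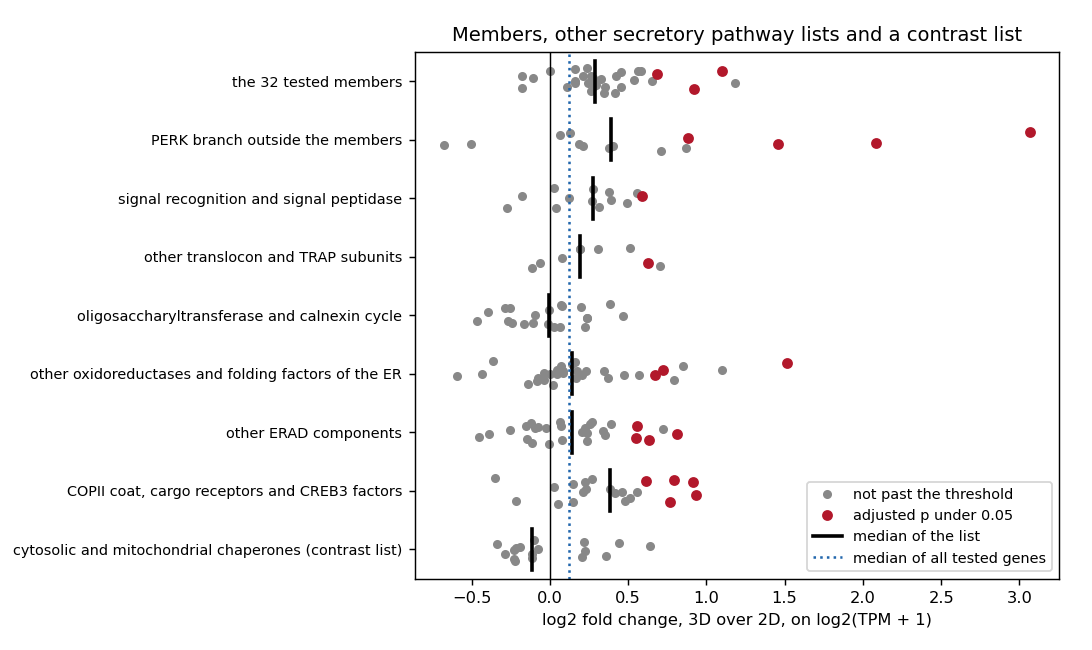
Limma log2 fold change (3D over 2D on log2(TPM + 1)) of the 32 tested members and of the tested genes of 8 other lists, with called genes in red, the median of each list as a black bar and the median of all tested genes dotted at 0.12. PPP1R15A and PPP1R15B lie farthest to the right at 3.07 and 2.08, and the cytosolic and mitochondrial chaperones have a median below 0.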

How the data were processed

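The values are TPM as the authors deposited them, 1 column for each library with 2 decimals, and every column totals 1000000 within rounding. The tools named per the submitters' processing notes were RSEM 1.3.1, STAR 2.7.0d and cutadapt 2.3, and the build was hg38, with no role or order stated. Which annotation, strand setting and filters applied is not given in the sources used here. Per the labels' protocols, poly(A) RNA went into directional libraries read as single ends of 75 nt. Sample titles gave the groups, and all 6 columns matched a sample.

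Testing was on log2(TPM + 1), a scale that understates changes of low genes, for every gene averaging 1 TPM or more. The tool was limma 3.58.1 (eBayes with trend) under R 4.3.3, two-sided, for the difference of 3D from 2D without covariates, with Benjamini-Hochberg adjustment and a threshold of 0.05. An exact test of 3 against 3 cannot go below p = 0.1, so none was used. The fit was tested on simulated data. Members and lists were chosen with earlier results of these data known. Values in every library were given for called members, the sensors, XBP1, HSPA5, and in each role the most abundant member and that with the largest change; HERPUD1 and DERL3 were added after their values were seen. From each list up to 3 called genes were named, or the most abundant; NFE2L2 and the uncalled genes of the PERK branch were also added after their values were seen. PDIA3 has a processed pseudogene at low TPM, and the division of reads between them is uncertain. Gene positions are from GENCODE 29 on GRCh38 and promoters from RefSeq on GRCh38.p14. The alternatives were 17 other settings. Figures used matplotlib 3.10.9 in Python 3.11.15.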

Additional observations from a re-analysis of the deposited data

How the results depend on the processing

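No member was called lower under any of the 17 alternatives run with limma, where at an unadjusted p under 0.05 the number lower was 1 without 2D replicate 3 and 0 in the other alternatives. Whole-table calls lower ran from 25 of 15042 without 3D replicate 1 to 1239 without the libraries numbered 3 of both groups. The count of members called higher, 3 as reported, was 0 with no filter on low TPM (12 at an unadjusted p under 0.05), 1 under median-ratio scaling, and 9 without the libraries numbered 3 of both groups. Leaving out 1 library gave 0 to 6. The count was 0 without 3D replicate 1 or 3D replicate 2, and 1 without 2D replicate 1 or 2D replicate 2. It was 4 without 2D replicate 3 and 6 without 3D replicate 3. Calls over the whole table moved as well, from 1536 genes called higher in the main fit. They numbered 331 without 3D replicate 1, 380 without 3D replicate 2 and 1610 without 3D replicate 3. Without 2D replicates 1, 2 and 3 in turn they numbered 733, 408 and 1520. Median-ratio scaling gave 971. With no filter 33924 genes were tested in place of 15042, and 729 genes were called higher. The causes of these shifts were not tested. With pseudocounts of 0.1 and 5, a filter at 5 TPM, and eBayes without trend or with its robust option 3 members were called higher. Quantile normalization gave 2 members, and protein-coding nuclear genes only gave 4. The median log2 fold change of the members stayed positive, from 0.13 under median-ratio scaling to 0.38 without the libraries numbered 3 of both groups.

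The replicate numbers are not known to pair the libraries. Deviations from the group means correlated across genes by 0.10, 0.04 and 0.19 between libraries with the same number, and 3D replicates 1 and 2 each correlated best with 2D replicate 2. With the replicate block 4 members were called higher, DNAJB9 added to the 3. TPM keeps no depth, so what depth limits is unknown, and with 3 libraries a group single libraries decide most calls near the threshold.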

Other observations

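A neighbour of OS9 on chromosome 12 was listed at a similar level. CDK4, whose gene starts at position 57747727, averaged 2335 TPM over the 6 libraries, against 2412 TPM for OS9. TSPAN31, beside it, averaged 744 TPM and PIP4K2C, on the other side of OS9, 662 TPM. Other genes in the same stretch were far lower, such as AGAP2 at 2.65 TPM, METTL1 at 27.4 TPM and DDIT3 at 51.2 TPM. CDK4 had 2055, 2094 and 2802 TPM in 3D and 2336, 2239 and 2481 TPM in 2D, so its groups overlapped as those of OS9 did. These neighbours were chosen after their values were seen, and copy number was not measured.

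SEC61G, the small subunit of the translocation channel, chosen after its values were seen, was more abundant than any member, with 8058 ± 1676 TPM in 3D and 6481 ± 1124 TPM in 2D (SD, n = 3 each). Its companions in the channel, SEC61A1 and SEC61B, averaged 130 ± 15.8 and 154 ± 2.37 TPM in 3D, against 117 ± 17.1 and 155 ± 23.3 TPM in 2D. The SEC61G difference did not pass the test (limma log2 fold change 0.31, SE 0.21, adjusted p = 0.355).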
